A study of Mus musculus with 6 samples.

Results

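A set of 10 genes of the basal progenitor and neurogenic programme were examined in the E12.5 mouse lateral cortex, out of 17068 genes counted. They were Eomes, Insm1, Neurog1, Neurog2, Dll1, Dll3, Mfng, Hes6, Btg2 and Gadd45g. The 10 genes were chosen by their known role in the step from radial glia to intermediate progenitor and by having passed the filter on low counts that the authors applied to the table, with earlier results of these data known, so their differences between groups are given as a description. All 10 were in the table, with between 984 and 23311 counts in a library.

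The comparison was between 4 control cortices and 2 cortices labelled Foxp1cKO, all from female c57/bl6 embryos. Controls 1, 2 and 4 were Foxp1 fl/+ and control 3 was Foxp1 fl/fl, each without Cre. Both Foxp1cKO embryos carried Foxp1 fl/fl with Emx1Cre, in which Emx1 drives Cre in the progenitors of the dorsal telencephalon, so that vessels, blood, microglia, meninges and cells that come from the ventral telencephalon largely keep an unrecombined allele. Bulk RNA was sequenced, with 50076008 to 78346979 reads counted on genes per library, and a loss of cells of a type cannot be told apart from less RNA per cell. Levels are given as CPM, counts scaled to a common library size, at which 3 counts correspond to 0.0383 to 0.0599 CPM, counting error only. The Foxp1 count had a higher mean in the Foxp1cKO libraries than in the controls. Foxp1 had 59.7 to 79.1 CPM in the controls against 83.2 and 76.8 CPM, a log2 fold change of 0.24 (SE 0.129, adjusted p = 0.468, edgeR). These counts run over the whole gene and do not check the deletion. Reads over the floxed exons were not analysed separately here.

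Cortical radial glia divide at the ventricle, and many of their daughters become intermediate progenitors, which move to the subventricular zone and divide again to give neurons. Proneural transcription factors of the Neurogenin family start this step and switch on Delta ligands. The ligands activate Notch on neighbouring cells, where Hes1 and Hes5 hold back neurogenesis. Insm1 and Eomes (Tbr2) then establish the intermediate progenitor state, while antiproliferative genes such as Btg2 mark divisions that yield neurons.

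Of the 10 genes, 9 had a lower mean in the libraries labelled Foxp1cKO and 1, Neurog1, a higher one, where 50.7% of all genes were lower. None of the 10 passed an adjusted p of 0.05 in edgeR's quasi-likelihood test, as 0.152% of all genes did. Hes6, Btg2 and Mfng lay lower in both Foxp1cKO libraries than in all 4 controls, by 0.42, 0.35 and 0.27 on the log2 scale, and 13.1% of all genes lay lower in this way. Gadd45g was lower by 0.32 and Eomes by 0.21, with overlapping groups. Neurog1, Neurog2, Insm1, Dll1 and Dll3 differed by 0.05 to 0.13 in either direction, within the spread of the controls.

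Per kilobase of exon (RPKM, from the union of annotated exons), Neurog2 and Eomes were the most abundant of the 10, with medians over the 6 libraries of 102 RPKM (74.6 to 111) and 66.1 RPKM (61.5 to 90.3). Hes6 followed at 50.2 RPKM (38.8 to 56.4), then Gadd45g at 38.4, Mfng at 36.7, Insm1 at 29.8, Btg2 at 29.2 and Dll1 at 27.0 RPKM. Neurog1 at 10.8 RPKM (8.01 to 13.0) and Dll3 at 9.34 RPKM (8.15 to 10.3) were lowest. Only 2 pairs of neighbours in this order had ranges that did not overlap, Eomes above Hes6 and Dll1 above Neurog1, whose median was 2.5-fold lower. The RPKM ranges of Neurog2 and Eomes, and those of every pair of neighbours from Hes6 down to Dll1, overlapped. By this scale Neurog2 stood above Neurog1 and Dll1 above Dll3 in every library.

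**Figure D1:**
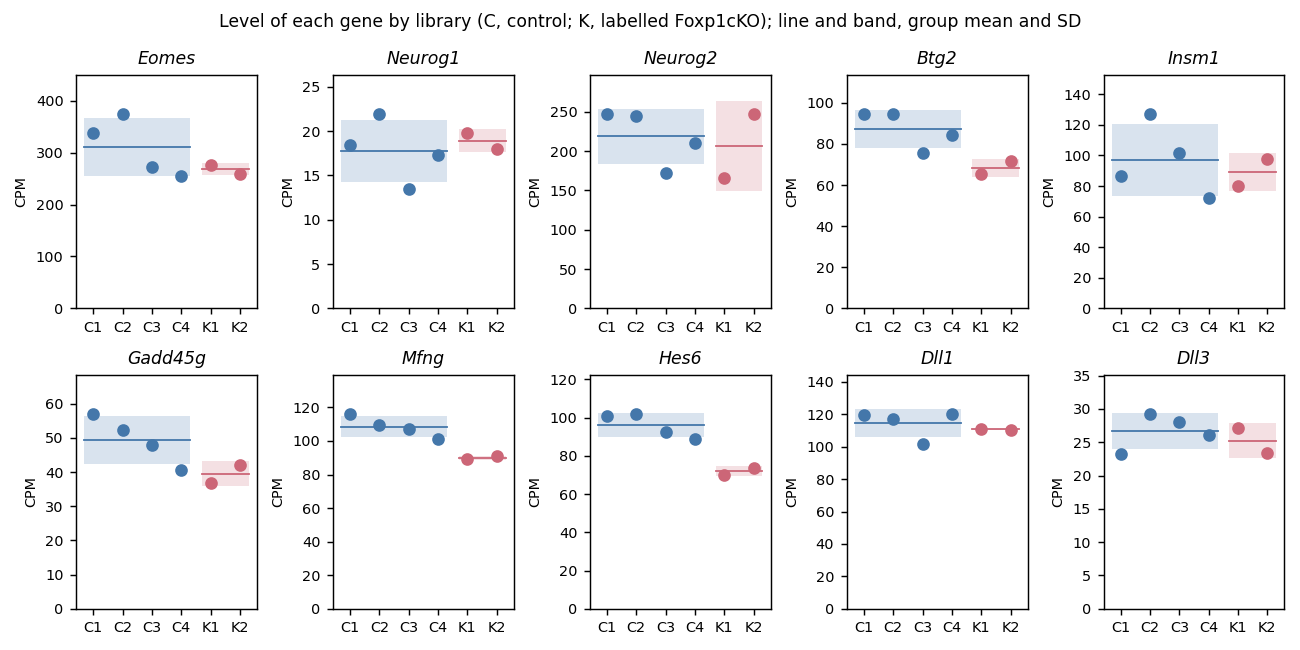
Level of each of the 10 genes in CPM (vertical axis, from 0) in each library (C1 to C4, controls; K1 and K2, libraries labelled Foxp1cKO). Points are libraries, lines group means and bands 1 SD. Both K points of Btg2, Mfng and Hes6 sit below all C points, and the other 7 genes overlap.

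Hes6, a member of the Hes family that opposes Hes1 and promotes neuronal differentiation, showed the largest difference of the 10. It had 100.7, 102.0, 92.6 and 88.8 CPM in controls 1 to 4 and 70.1 and 73.9 CPM in Foxp1cKO 1 and 2. All controls were above both Foxp1cKO libraries, and the means were 96.0 ± 6.39 CPM (SD, n = 4) and 72.0 ± 2.66 CPM (SD, n = 2). The log2 fold change was -0.42 (SE 0.0866, 95% interval -0.62 to -0.21), with an adjusted p of 0.232 in edgeR over all 17068 genes. DESeq2 gave nearly the same size, -0.41 (SE 0.107), with an adjusted p of 0.00828, so the call for Hes6 depends on the tool.

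Btg2 (Tis21), an antiproliferative gene switched on in progenitors that are about to give neurons, had 94.6, 94.8, 75.7 and 84.4 CPM in the controls. The Foxp1cKO libraries had 65.3 and 71.6 CPM, both below the lowest control, which was control 3. The log2 fold change was -0.35 (SE 0.113, 95% interval -0.62 to -0.085, adjusted p = 0.299, edgeR). Against control 3, the control that shares the Foxp1 fl/fl genotype, the difference was -0.15.

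Mfng (Manic fringe), a glycosyltransferase that modifies Notch receptors, had 116, 109, 107 and 101 CPM in the controls and 89.0 and 90.9 CPM in Foxp1cKO 1 and 2. The groups did not overlap, and Mfng varied less among controls than the other 9 genes, with an SD of 0.083 on the log2 scale. Its log2 fold change was -0.27 (SE 0.0793, 95% interval -0.46 to -0.083, adjusted p = 0.282, edgeR).

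Gadd45g, a stress and growth arrest gene that is also a target of proneural factors, had 57.0, 52.3, 47.9 and 40.5 CPM in the controls and 36.9 and 42.1 CPM in the Foxp1cKO libraries. Foxp1cKO 2 was above control 4 and below the other controls. The log2 fold change was -0.32 (SE 0.145, 95% interval -0.66 to 0.019, adjusted p = 0.407, edgeR).

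Sequences upstream of the start are shown for the genes with the 3 largest differences, Hes6, Btg2 and Gadd45g, a choice made after their values were seen. E boxes, here every match to CANNTG, are in capitals. Proneural factors recognise forms of this motif, and the capitals do not tell which factor binds a match. The sequences are from RefSeq on GRCm38.p6, read 5′ to 3′ on the strand of the gene and ending just before its RefSeq start. Hes6 lies on the minus strand (chr1:91414039-91414288), Btg2 on the minus strand (chr1:134079156-134079405) and Gadd45g on the plus strand (chr13:51846425-51846674).
Hes6: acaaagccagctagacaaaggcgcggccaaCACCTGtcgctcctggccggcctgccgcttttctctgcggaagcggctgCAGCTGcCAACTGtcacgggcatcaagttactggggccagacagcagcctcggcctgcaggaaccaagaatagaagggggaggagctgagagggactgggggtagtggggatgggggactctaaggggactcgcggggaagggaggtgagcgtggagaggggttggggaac
Btg2: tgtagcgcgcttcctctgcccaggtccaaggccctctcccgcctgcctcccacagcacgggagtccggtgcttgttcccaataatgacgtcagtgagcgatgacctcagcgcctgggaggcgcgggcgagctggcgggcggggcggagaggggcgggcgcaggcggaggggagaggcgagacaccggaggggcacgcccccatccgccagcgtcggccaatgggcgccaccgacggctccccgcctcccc
Gadd45g: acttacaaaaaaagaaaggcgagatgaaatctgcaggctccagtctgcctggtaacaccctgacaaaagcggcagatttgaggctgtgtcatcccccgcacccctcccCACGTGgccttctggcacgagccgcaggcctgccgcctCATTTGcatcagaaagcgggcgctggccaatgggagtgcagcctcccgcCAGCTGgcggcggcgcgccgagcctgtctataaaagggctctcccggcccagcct
In these 250 bases Hes6 and Gadd45g each held 3 E boxes and Btg2 held 0. The E boxes nearest to the start were 164 bases before it in Hes6 and 55 bases in Gadd45g.

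Windows of 300 bases around the start were matched for 8 of the 10 genes, all but Mfng and Insm1. Of the 8 genes, which had 10 windows, 5 held an E box (Neurog1, Gadd45g, Hes6, Dll1 and Dll3). By window it was 7 of their 10, beside 72.3% of all 32851 windows, on either strand. The narrower form CAGATG, a special case of CANNTG, was in none of the 8 and in 17.2% of all windows. The RBPJ motif TGGGAA was in 2 of the 8 genes (Btg2 and Gadd45g) and 2 of their 10 windows, beside 25.6% of all windows. The N box CACNAG was in 5 of the 8 genes and 5 of the 10 windows, beside 42.5%. The hypoxia response core (ACGTG or GCGTG) was in 6 of the 8 genes and 8 of the 10 windows, beside 43.8%. A gene could have more than 1 window, and a match is a description of the letters only.

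By gene, Hes6 (ENSMUSG00000067071.8) lies at 91411483 to 91414038 and Btg2 (ENSMUSG00000020423.6) at 134075170 to 134079120, both on the minus strand of chromosome 1. Eomes (ENSMUSG00000032446.14) lies on chromosome 9 at 118478212 to 118486132, plus strand. Gadd45g (ENSMUSG00000021453.2, 51846678 to 51848468, plus strand) and Neurog1 (ENSMUSG00000048904.5, 56250478 to 56252163, minus strand) share chromosome 13. Neurog2 (ENSMUSG00000027967.8) is on chromosome 3 at 127633135 to 127635631, plus strand, and Insm1 (ENSMUSG00000068154.5) on chromosome 2 at 146221921 to 146225020, plus strand. Mfng (ENSMUSG00000018169.12) is on chromosome 15 at 78755882 to 78773475, Dll1 (ENSMUSG00000014773.13) on chromosome 17 at 15367354 to 15376872, and Dll3 (ENSMUSG00000003436.11) on chromosome 7 at 28293553 to 28302238, all 3 on the minus strand. Neurog1 and Insm1 have a single exon block, and Dll1 and Mfng, with 12 and 10, have the most. The coordinates are of GENCODE M21 on GRCm38 (mm10).

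Having both Foxp1cKO libraries below all controls was not rare, since 2235 of the 17068 genes (13.1%) did so and 11.5% had both above. Among the 10 genes it was 3 below and 0 above. An unadjusted p under 0.05 was reached by the same 3 genes, Hes6, Mfng and Btg2. Over all genes this was reached by 13%, made up of 6.5% lower and 6.53% higher. After adjustment 26 genes, or 0.152%, were called, all of them higher (0% lower, 0.152% higher), and none of the 10 was among them. This count ran from 2 (without control 2) to 96 (without control 4) when single libraries were left out, with 0 of the 10 called each time. DESeq2 called 3.36% of the 15067 genes it tested, 1.31% lower, and Hes6 alone of the 10. The median of the 10 log2 fold changes was -0.17, beside -0.0044 over all genes, and the SD of the 10-gene median over the single controls was 0.118. The median of the 10 was -0.073 without control 2, -0.268 without control 4 and -0.299 without Foxp1cKO 2.

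**Figure D2:**
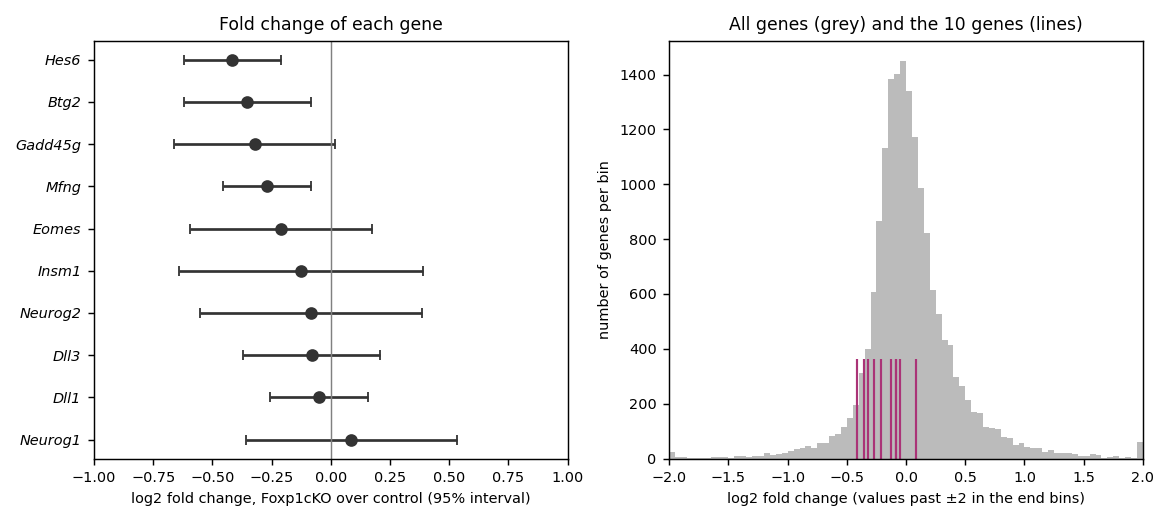
Left, log2 fold change of Foxp1cKO over control (horizontal axis) for each of the 10 genes with its 95% interval from edgeR. Right, histogram of log2 fold changes over all 17068 genes in grey, with the 10 genes as lines. The intervals of Hes6, Btg2 and Mfng lie below 0, the other 7 include 0, and all 10 lie within 1 log2 unit of 0.

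Eomes, the transcription factor that marks intermediate progenitors, had 337, 375, 272 and 256 CPM in controls 1 to 4 and 277 and 260 CPM in Foxp1cKO 1 and 2. Controls 1 and 2 were high, and controls 3 and 4 lay at the level of the Foxp1cKO libraries. The means were 310.0 ± 55.7 CPM (SD, n = 4) and 268 ± 12.04 CPM (SD, n = 2), for a log2 fold change of -0.21 (SE 0.162, 95% interval -0.59 to 0.17, adjusted p = 0.608, edgeR), or -0.105 without control 2. The Foxp1cKO mean minus each control was -0.33, -0.49, -0.024 and 0.067 for controls 1 to 4, in log2 units.

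Insm1, a zinc finger factor that promotes the delamination of basal progenitors, was the most variable of the 10 among controls. It had 86.9, 127, 101.8 and 72.0 CPM there and 80.1 and 97.7 CPM in the Foxp1cKO libraries, which lay inside the control range. The log2 fold change was -0.13 (SE 0.219, 95% interval -0.64 to 0.39, adjusted p = 0.844, edgeR), and it was 0.034 without control 2 and 0.01 without Foxp1cKO 1.

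Neurog2, the main proneural factor of the dorsal telencephalon, had 248, 244, 172 and 211 CPM in the controls. The 2 Foxp1cKO libraries were far apart, with 166 CPM in Foxp1cKO 1, the lowest of the 6, and 246 CPM in Foxp1cKO 2, just under the highest control. The log2 fold change was -0.085 (SE 0.199, 95% interval -0.55 to 0.39, adjusted p = 0.889, edgeR), and it was 0.17 without Foxp1cKO 1. Its close relative Neurog1 had 18.5, 22.0, 13.5 and 17.2 CPM in the controls and 19.8 and 17.98 CPM in the Foxp1cKO libraries. Neurog1 was thus inside the control range, with a log2 fold change of 0.087 (SE 0.188, 95% interval -0.36 to 0.53, adjusted p = 0.879, edgeR), or -0.04 without control 3.

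The Notch ligand Dll1 was close to level over the 6 libraries, with 119, 117, 101.8 and 120.3 CPM in the controls and 111 and 110.4 CPM in Foxp1cKO 1 and 2. Control 3 was the only control below the Foxp1cKO pair. The log2 fold change of Dll1 was -0.05 (SE 0.0885, 95% interval -0.26 to 0.16, adjusted p = 0.846, edgeR). Dll3, a divergent Delta protein that acts within the cell that makes it, had 23.2, 29.3, 28.1 and 26.1 CPM in the controls and 27.1 and 23.3 CPM in the Foxp1cKO libraries. Control 1 and Foxp1cKO 2 were the low libraries, and the log2 fold change was -0.08 (SE 0.123, 95% interval -0.37 to 0.21, adjusted p = 0.813, edgeR), or 0.0049 without Foxp1cKO 2. Exons of Dll1 and Eomes overlap an antisense gene by 867 and 118 bases, with at most 1.92 and 0.772 CPM counted on these partners, and whether the counting used strand is not given in the sources used here.

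Counting error was small beside these spreads, at 0.0099 to 0.041 log2 units for the 10 genes, whereas the SD over controls ran from 0.083 for Mfng to 0.35 for Insm1. The median SD over controls of all genes was 0.199. Insm1 was at the 73.0th percentile of all genes by this SD, Neurog1 at the 65.7th and Eomes at the 60.8th, while Mfng and Hes6 were at the 16.9th and 21.6th. The 3 genes whose groups separated were Hes6, Mfng and Btg2 (39.7th percentile), all less variable than the median gene. Dll1 and Dll3, at percentiles 27.2 and 37.3, were also less variable than the median gene, and their groups overlapped.

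Control 2 was the highest of the 6 libraries for 6 genes, Eomes, Neurog1, Btg2, Insm1, Hes6 and Dll3. Control 1 was the highest for Neurog2, Gadd45g and Mfng, and control 4 for Dll1. Foxp1cKO 1 was the lowest library for 5 genes, Neurog2, Btg2, Gadd45g, Mfng and Hes6, and Foxp1cKO 2 was neither highest nor lowest for any. Set against single controls, the median of the 10 log2 differences was -0.31 for control 1, -0.34 for control 2, -0.15 for control 3 and -0.056 for control 4. The difference of the set was thus greatest against controls 1 and 2 and close to 0 against control 4. Hes6, Btg2 and Mfng, which lay below every control, differed from control 4 by -0.30, -0.30 and -0.17. Insm1 differed from it by 0.30, Neurog1 by 0.13 and Eomes by 0.067, and the other 7 of the 10 were lower.

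**Figure D3:**
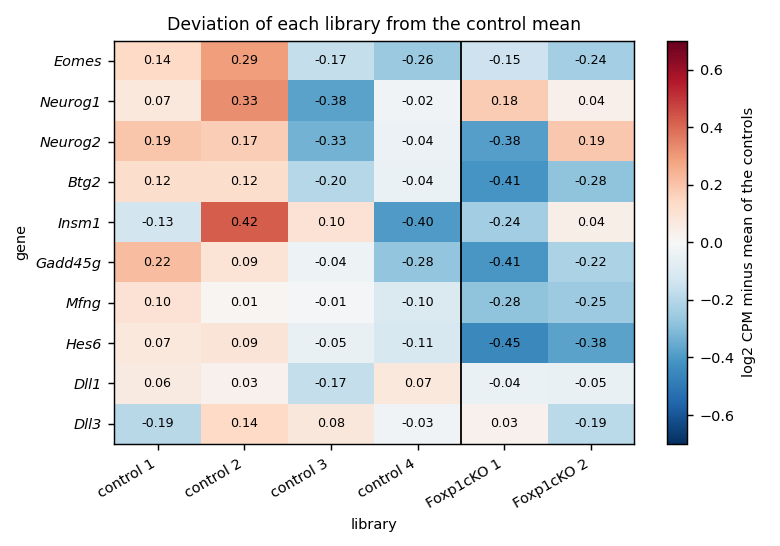
Log2 CPM of each gene (rows) in each library (columns) minus the mean of the 4 controls, in colour and as a printed value, with a line between controls and the libraries labelled Foxp1cKO. Hes6, Btg2, Mfng, Gadd45g, Eomes and Dll1 are below the control mean in both Foxp1cKO libraries, and controls 1 and 2 lie above it for 8 and 10 of the genes.

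Over the 6 libraries, the 45 pairs of the 10 genes had a median Pearson correlation of 0.409 in log2 CPM, from -0.488 for Neurog2 with Dll3 to 0.972 for Mfng with Hes6, with 39 pairs above 0. These points share library scaling and, for the genes that separate the groups, the group difference. Btg2, Gadd45g, Mfng and Hes6, picked after their values were seen, correlated with each other at 0.823 to 0.972. Over the 4 controls alone these correlations ran from 0.5534 to 0.9785. Of the 11331 genes with a mean of at least 5 CPM, 24 had a correlation with Eomes of at least 0.9 over the 6 libraries. Those most like Eomes were Dubr (r = 0.979), Rtl5 (r = 0.972), Abcd2 (r = 0.964), Gm6969 (r = 0.959) and Calr (r = 0.955). Gm6969 had a mean of 10.8 CPM in the controls and 0.558 CPM in the Foxp1cKO libraries, a far larger difference than that of Eomes. A group mean can rest on few of the controls, and the single libraries of Gm6969 are not given here. Given 6 libraries, the correlations are descriptions only.

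Ratios between a gene and a reference gene of the same library do not depend on scaling. Eomes to Pax6, a factor of radial glia, was 0.645, 0.666, 0.671 and 0.0591 on the log2 scale in controls 1 to 4 and 0.235 and 0.121 in Foxp1cKO 1 and 2. Control 4 was below both Foxp1cKO libraries and far from the other controls, and the difference of the means was -0.33 (control SD 0.301, n = 4). Eomes to Tbr1, a factor of the early neurons that follow intermediate progenitors, differed by -0.033 between the groups, with control values from -0.488 to 0.024.

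Neurog2 to Hes5, a Notch target, was 3.13, 2.88, 2.53 and 2.13 in the controls and 1.8 and 2.58 in the Foxp1cKO libraries, a difference of -0.48 beside an SD of 0.433 over the controls and 0.553 over the Foxp1cKO pair. This difference was -0.0907 without Foxp1cKO 1 and -0.872 without Foxp1cKO 2. Neurog1 to Neurog2 was narrow in the controls, from -3.71 to -3.45. It was -3.03 in Foxp1cKO 1, above all controls, and -3.74 in Foxp1cKO 2, below them. Dll1 to Dll3 ran from 1.84 to 2.34 in the controls and was 2.01 and 2.22 in the Foxp1cKO libraries. With 4 libraries against 2, an exact two-sided test cannot go below a p of 0.133, so none was run on the ratios. Insm1 to Sox2 was not analysed here.

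**Figure D4:**
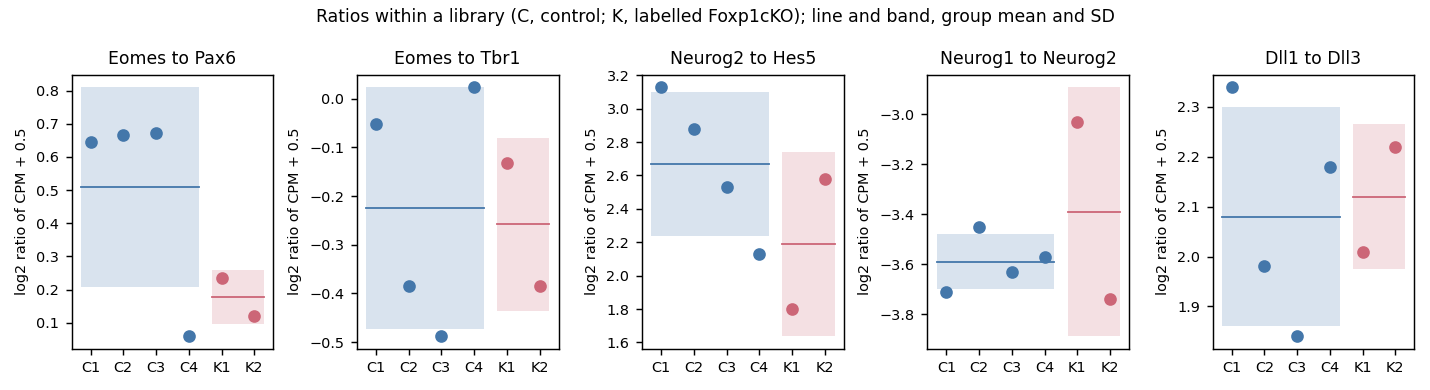
Log2 ratio of 2 genes within a library (vertical axis, from CPM + 0.5, each panel with its own range) for the 4 controls (C1 to C4) and the 2 libraries labelled Foxp1cKO (K1 and K2), with group means as lines and 1 SD as bands. Control 4 stands at 0.0591 for Eomes to Pax6, below both K libraries, and the K libraries lie on either side of the controls for Neurog1 to Neurog2.

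Other members of the gene families gave values on both sides of 0. Of 26 listed family members, 21 were in the table, 8 lower and 13 higher, with a median log2 fold change of 0.19, and none passed the threshold. Both Foxp1cKO libraries were above all controls for 3 of them and below for 0, beside 11.5% and 13.1% of all genes. Dll4, the Delta ligand best known from vessels, had 4.80 to 5.87 CPM in the controls and 8.01 and 7.36 CPM in Foxp1cKO 1 and 2 (log2 fold change 0.57, SE 0.155, adjusted p = 0.266, edgeR). Btg3 had 5.79 to 12.9 CPM against 14.2 and 13.8 CPM (log2 fold change 0.75, SE 0.304, adjusted p = 0.370, edgeR). Tob1, of the same antiproliferative family as Btg2, had 21.8 to 29.9 CPM against 31.0 and 33.9 CPM (log2 fold change 0.32, SE 0.131, adjusted p = 0.371, edgeR). Btg1 was at -0.056, the sign of Btg2, and Tob2 was higher on average, with overlapping groups for both.

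Among the other fringe genes, Lfng had 26.9 to 40.6 CPM in the controls and 31.7 and 32.6 CPM in the Foxp1cKO libraries, and Rfng 25.4 to 35.4 CPM against 26.1 and 26.0 CPM. Both overlapped, with log2 fold changes of -0.17 and -0.26, the sign of Mfng. Gadd45a and Gadd45b differed by 0.14 and -0.076 and were expressed at under 5 CPM. The Notch effectors had values on both sides of 0, none past the threshold. Hes1 had 18.1 to 43.8 CPM in the controls against 45.3 and 41.5 CPM (log2 fold change 0.49, SE 0.300, adjusted p = 0.519, edgeR). Hes5 had 27.8 to 47.6 CPM against 47.4 and 40.8 CPM (log2 fold change 0.36, SE 0.217, adjusted p = 0.516, edgeR), and control 4 lay at the level of the Foxp1cKO libraries for both. Hey1 differed by -0.26, Hey2 by -0.35 and Heyl by 0.066, all with overlapping groups.

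A wider list of genes of neuronal commitment also had values on both sides of 0. Of 29 listed, 27 were in the table, 18 lower and 9 higher, with a median log2 fold change of -0.067 and none past the threshold. Both Foxp1cKO libraries were below all controls for 2 and above for 3, beside 13.1% and 11.5% of all genes. Neurod4, a proneural factor downstream of the Neurogenins, had 10.4, 13.3, 11.5 and 10.4 CPM against 8.39 and 8.74 CPM (log2 fold change -0.41, SE 0.151, adjusted p = 0.343, edgeR). Sstr2, a somatostatin receptor expressed in intermediate progenitors, had the most negative value of the list at -0.58 (SE 0.288, adjusted p = 0.435, edgeR), with 89.2, 77.9, 68.1 and 43.8 CPM against 37.8 and 55.2 CPM. In the other direction were Pou3f2 (Brn2), at 66.3 to 104 CPM against 115 and 126 CPM (0.43, SE 0.173, adjusted p = 0.368, edgeR), and Ebf2 at 0.45 (SE 0.269, adjusted p = 0.509, edgeR).

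Markers of other cells in the dissection varied beside these values. Of the 11 radial glia markers counted, 3 were lower and 8 higher, with a median log2 fold change of 0.10, and their summed level was 2995 to 3740 CPM in the controls and 3550 and 3431 CPM in Foxp1cKO 1 and 2. Notch1, the receptor that the Delta ligands bind, had 288, 314, 310.0 and 318 CPM in the controls and 441 and 402 CPM in the Foxp1cKO libraries (log2 fold change 0.46, SE 0.0784, adjusted p = 0.152, edgeR), and Hes1 was the radial glia marker with the most positive value (0.49). The most negative values of that list were those of Fabp7, a fatty acid binding protein of radial glia (-0.43, SE 0.180, adjusted p = 0.377, edgeR), and Nes, an intermediate filament of neural progenitors (-0.24, SE 0.140, adjusted p = 0.499, edgeR). Fabp7 had 254 (control 1), 332 (control 2), 286 (control 3) and 207 CPM (control 4) against 190.5 and 210.0 CPM, so that the groups overlapped. Of 11 neuronal markers 9 were lower and 2 higher, from -0.40 for Neurod6 and -0.35 for Fezf2 to 0.027 for Stmn2 and 0.096 for Bcl11b in log2 fold change, none past the threshold. Their sum ran from 3231 CPM in control 4 to 5892 CPM in control 3, with the Foxp1cKO libraries between them at 4273 and 4430 CPM. Cajal-Retzius markers were higher in 7 of 7, with sums of 415 to 505 CPM against 486 and 598 CPM. Markers of the ventral telencephalon summed to 287 to 920.1 CPM, highest in control 3, against 618 and 458 CPM, and 3 of 10 were lower. Cortical hem and choroid plexus markers were low throughout, at 1.11 to 16.6 CPM against 6.46 and 1.69 CPM, with 4 of 5 lower.

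Red cell genes summed to 1436, 1090.0, 1139 and 3429 CPM in controls 1 to 4 and to 3760 and 4021 CPM in Foxp1cKO 1 and 2, with 7 of 8 higher in the Foxp1cKO mean. Control 4, the control with the most red cell RNA, was also the control lowest for Eomes, Insm1, Gadd45g, Mfng and Hes6. For Neurog1, Neurog2, Btg2 and Dll1 the lowest control was control 3, and for Dll3 it was control 1. Pericyte markers were higher in 5 of 5, at 68.2 to 88.3 CPM against 111 and 116 CPM, and endothelial markers in 6 of 8, at 135 to 208 CPM against 196 and 239 CPM. Flt1, a VEGF receptor, was the 1 gene of these lists past the threshold, with a log2 fold change of 1.64 (SE 0.159, adjusted p = 0.0179, edgeR), a call lost when control 1, control 2 or either Foxp1cKO library was left out. Microglia markers were at 22.9 to 35.7 CPM against 37.3 and 33.8 CPM, with 5 of 7 higher, and markers of meninges and mesenchyme at 92.7 to 562 CPM against 150 and 340 CPM, with 5 of 6 lower. The part of these other cells in the values of the 10 genes was not tested.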

How the data were processed

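Lateral cortex of single E12.5 embryos was profiled by stranded bulk RNA-Seq, 4 controls and 2 labelled Foxp1cKO. Reads were aligned by the authors to mm10 with STAR and counted per gene with HTSeq 0.9.1 in union mode, and genes with low counts were removed. The deposited values are raw counts for 17068 genes and variance-stabilised values on a log2 scale, the latter used only with limma. Per the submitters' processing notes, R 4.0.3, DESeq2 1.30.1 and FastQC 0.11.9 were used. The authors also modelled litter, which the labels do not give and which was not used here. Embryos were the replicates.

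Counts were normalized by TMM and compared with edgeR 4.0.16 (R 4.3.3) quasi-likelihood tests, two-sided, group alone, over all 17068 genes, with Benjamini-Hochberg adjustment and a threshold of 0.05. Standard errors and 95% intervals were derived from the F statistic. Log2 CPM used a prior count of 2, and ratios used CPM + 0.5. Depth was 50076008 to 78346979 counts per library. Gene positions and exon lengths were from GENCODE M21 (GRCm38), in which 17047 of 17068 identifiers were found. Promoter windows were from RefSeq (GRCm38.p6).

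The 10 genes and all gene lists were chosen with earlier results of these data known. Genes were named by a rule that admitted Foxp1, the 10, their families, reference genes of the ratios, in each list those past the threshold and the 2 largest fold changes in each direction above 1 CPM, and the 5 genes most like Eomes. Alternatives were DESeq2 1.42.0, limma 3.58.1, other scalings and filters, a robust fit, each library left out, the Foxp1 fl/fl control alone, CPM + 1 in the ratios, and a replicate block. The crossed block was added after seeing the data. Both blocks kept only controls 1 and 2 with the 2 Foxp1cKO libraries. On simulated counts for 17068 genes with 200 changed, edgeR called 176, of which 152 were changed. These were 92 of those shifted by 2 log2 units and 60 of those shifted by 1. Over the 14349 genes with higher mean counts, 95.2% of intervals held the true value. No changed gene was shifted by less than 1 log2 unit. Whether differences as small as those of the 10 genes would be called was not tested.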

Additional observations from a re-analysis of the deposited data

Results flagged for a closer look

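Among 48 sets of control values tested, 4 held 1 library far from the other controls by Dixon's criterion, where chance gives about 1 in 20. Eomes to Pax6 on the log2 scale was 0.0591 in control 4 against 0.645 to 0.671 in controls 1 to 3. The summed red cell genes were at 3429 CPM in control 4 against 1090.0 to 1436 CPM. Dlk1, a non-canonical Notch ligand, had 24.6 CPM in control 3 against 8.99 to 11.3 CPM. Insm2, the paralog of Insm1, had 0.966 CPM in control 2, also the control highest for Insm1, against 0.339 to 0.425 CPM. None of the 10 genes by its own level was among the 4.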

How the results depend on the processing

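Hes6, Mfng, Btg2, Gadd45g and Eomes had a negative log2 fold change by the main test and in all 16 alternatives, with Hes6 from -0.49 to -0.36. Neurog1, Neurog2, Insm1, Dll1 and Dll3 changed sign in at least 1. Insm1 was 0.034 without control 2 and 0.01 without Foxp1cKO 1, Neurog1 -0.04 without control 3, Neurog2 0.17 without Foxp1cKO 1 and Dll3 0.0049 without Foxp1cKO 2. The lowest and highest values with 1 library left out were -0.292 and -0.105 for Eomes, -0.295 and 0.034 for Insm1, -0.04 and 0.205 for Neurog1, -0.415 and 0.17 for Neurog2, and -0.193 and 0.0049 for Dll3. Against the Foxp1 fl/fl control alone, Neurog1 was 0.485, Neurog2 0.26, Dll1 0.12, Hes6 -0.363 and Eomes -0.024. That fit holds 1 control, assumed to vary like the Foxp1cKO pair that alone gives the spread, so its 401 calls, 0 of them among the 10, are not comparable with the others. Of all 17068 genes 26 passed by the main test, 507 with DESeq2, 13 with at least 100 counts in every library, and 2 (without control 2) to 96 (without control 4) when single libraries were left out. Of the 10 genes 0 passed, also with each library left out, and 1, Hes6, with DESeq2. Their median of -0.17 ran from -0.299 (without Foxp1cKO 2) to -0.073 (without control 2), and the group difference in Neurog1 to Neurog2 from -0.15 to 0.56 and in Neurog2 to Hes5 from -0.872 to -0.0907. Flt1 was no longer called without control 1, control 2 or either Foxp1cKO library (log2 fold change 1.47 to 1.77), nor with the block. Over all genes, the difference between controls 1 and 2 correlated at -0.117 with that between Foxp1cKO 1 and 2. Crossing the numbers gives 0.117 by construction, so this value cannot tell whether the numbers pair the samples. Both the replicate block and the crossed pairing kept only controls 1 and 2 with Foxp1cKO 1 and 2, leaving out controls 3 and 4. Set against controls 1 and 2 singly, the median of the 10 was -0.31 and -0.34. With the replicate block, 1 gene and 0 of the 10 passed, the median was -0.304 and Neurog1 -0.095. With the crossed pairing, added after seeing the data, 1250 genes passed, Foxp1 (0.41) and 5 of the 10 among them: Eomes -0.41, Btg2 -0.47, Gadd45g -0.47, Mfng -0.33 and Hes6 -0.49, with a median of -0.304 and Neurog1 at -0.094. The cause of these changes was not tested. Depth did not limit the 10 genes, with 984 counts or more in each library, whereas the 4 and 2 libraries leave 95% intervals of the log2 fold change that reach from -0.66 (Gadd45g) to 0.53 (Neurog1).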
